A study of Mus musculus with 7 samples.

Results

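The type I interferon effector genes described here are 40 named mouse genes whose products detect, trap or degrade viral nucleic acid, block virus entry or release, or adjust the interferon response itself. The members are a list of gene names, drawn up with earlier results of these data known. The deposited tables hold 36 of the 40, among 23930 genes in all, and 35 of these 36 passed the filter on low counts that left 11429 genes for testing. Ifit3, Isg15, Ifitm2 and Ifitm3 were matched to no row and are not analysed here. Ifitm1, which encodes a membrane protein that restricts virus entry, was the member that did not pass, with at most 9 counts in a library.

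The study compared sorted bone marrow progenitors of pMT-10 mice, a transgenic strain that overexpresses interleukin-10 (IL-10), with those of C57BL/6 (BL/6) control mice. The pMT-10 transgene drives Il10 from a metallothionein promoter that responds to zinc in many cell types. Zinc was given in the drinking water for 15 days to the mice of every group, the BL/6 controls included. Cells were sorted by flow cytometry into 4 groups: common myeloid progenitors (CMPs) of pMT-10 mice (2 libraries), CMPs of BL/6 mice (2 libraries), pMT-10 LSK cells (negative for lineage markers, positive for SCA-1 and c-KIT) that are CD150+CD48+ (2 libraries), and hematopoietic stem cells (HSC) of pMT-10 mice (1 library). Age, sex and number of mice are not in the labels, nor are the CMP and HSC gates, and whether replicate libraries are from different mice is not stated. P-values therefore measure the spread between these libraries, part of which may be technical. Both pMT-10 CMP and both LSK libraries were sequenced on chip 1, and both BL/6 CMP libraries and the HSC library on chip 2, so that strain and chip cannot be told apart in the CMPs.

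Type I interferons (IFN-α and IFN-β) bind a receptor made of IFNAR1 and IFNAR2, whose kinases JAK1 and TYK2 switch on the complex ISGF3, which holds STAT2 and IRF9 and binds the interferon-stimulated response element (ISRE) in the promoters of effector genes. Many of the same genes also answer to IFN-γ, which acts at gamma-activated sites (GAS). In bone marrow, type I interferon is known to drive dormant stem cells into division and to raise surface SCA-1.

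Each gene was read through 1 amplicon, and total counts ran from 7372430 in the HSC library to 13854314 in LSK replicate 2. Levels below are in CPM, the count scaled to a common library total, and a count of 0 allows up to 3 counts, which is 0.216 to 0.397 CPM in these libraries. Levels are not compared between genes. Progenitor markers differed between the CMP groups that share a label. Kit, the c-KIT receptor of progenitors, was lower in pMT-10 CMPs (95.3 and 140 CPM against 303 and 274 in BL/6 CMPs, adjusted p = 0.00623), as was the transcription factor Gata2 (316 and 176 against 763 and 732, adjusted p = 0.00348). The cytokine receptor chain Csf2rb was higher (87.7 and 102 CPM against 8.5 and 9.29, adjusted p = 0.00012), as was the Fc receptor Fcgr3 (12.9 and 25.2 against 3.6 and 3.39, adjusted p = 0.00368). Cd34 (118 to 207 CPM in the 4 CMP libraries), Cebpa (38.7 to 80.6) and Mpo, a defining gene of myeloid commitment that was low (6.03 to 16.8), were not called. The part of these differences in the results below was not tested. Ly6a, which encodes SCA-1, had 326 and 249 CPM in the LSK libraries, 331 in HSC, 19.4 and 28.0 in the pMT-10 CMPs, and 0.0923 and 2.02 in the BL/6 CMPs. The stem cell genes Procr (38.5 CPM), Mecom (47.6 CPM) and Fgd5 (26.2 CPM) were far higher in the HSC library than in any other library, where each stayed at or below 4.09 CPM. Of the markers of other cells, some defining genes were at 3 counts or fewer in every library: Siglech and Ccr9 (at 0 throughout), Klk1, Cox6a2 and Spib of plasmacytoid dendritic cells, Adgre1, C1qa, C1qc and Vcam1 of macrophages, Cd3d, Cd3e, Cd3g, Cd8a and Ncr1 of T and NK cells, Ms4a1, Igll1 and Ebf1 of B cells, and Ly6g of neutrophils. Others were not: Cd79b of B cells had 52.3 CPM in HSC and 11 to 19.1 elsewhere, Cd68 of macrophages 1.85 to 17.2 CPM, Klrb1c of NK cells 4.90 CPM in HSC and at most 0.348 elsewhere, and the neutrophil genes S100a9 and Ngp up to 5.43 and 5.11 CPM. The pMT-10 CMP pair differed more between its replicates (SD of the log2 difference 0.823 over all tested genes, 0.644 over the members) than the BL/6 pair (0.385 and 0.323).

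The CMPs of the 2 strains were compared first, to see what differs under IL-10 overexpression within a labelled population. The effectors did not move as a block. Of the 35 tested members, 14 were higher in pMT-10 CMPs: Ifih1, Oas1b, Oas1g, Oas2, Oas3, Oasl2, Mx1, Isg20, Usp18, Trim21, Parp12, Parp14, Bst2 and Rtp4. Samd9l and Eif2ak2 were lower, and 19 were not called (adjusted p under 0.05, edgeR quasi-likelihood test). Over all tested genes, 28% were called, 14.3% higher and 13.7% lower, against 40.0% and 5.71% of the members. The median log2 fold change was 0.33 over the members and 0.01 over all tested genes. Both pMT-10 libraries lay above both BL/6 libraries for 17 members (48.6%, against 33.2% of all tested genes) and below them for 8 (22.9%, against 33.7%). Mx1 passed the filter on low counts through pMT-10 libraries alone, and Mx2 through BL/6 libraries alone. Their directions between the CMP groups were thus largely set by the filter. In these bulk samples a change in the share of cells that express a gene and a change in RNA per cell cannot be told apart.

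The number of calls changed with the library left out, over all tested genes as over the members. Without BL/6 replicate 1 it was lowest, over all tested genes and over the members. The ranges are given with the processing below. Without either of the BL/6 libraries the calls of Ifih1, Oas1g, Oas3, Trim21, Parp12, Parp14, Rtp4 and Eif2ak2 were lost; those of Oas1b and Usp18 were lost without replicate 1 and that of Oas2 without replicate 2. Isg20, Oasl2 and Bst2 (higher) and Samd9l (lower) were called under all 13 alternatives that were run. Each of the 16 called members kept its direction under all of them, or, for Mx1, under the 12 that tested it. The libraries of the CMP groups did not overlap for any called member, so leaving out a library could hardly reverse a direction.

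**Figure D1:**
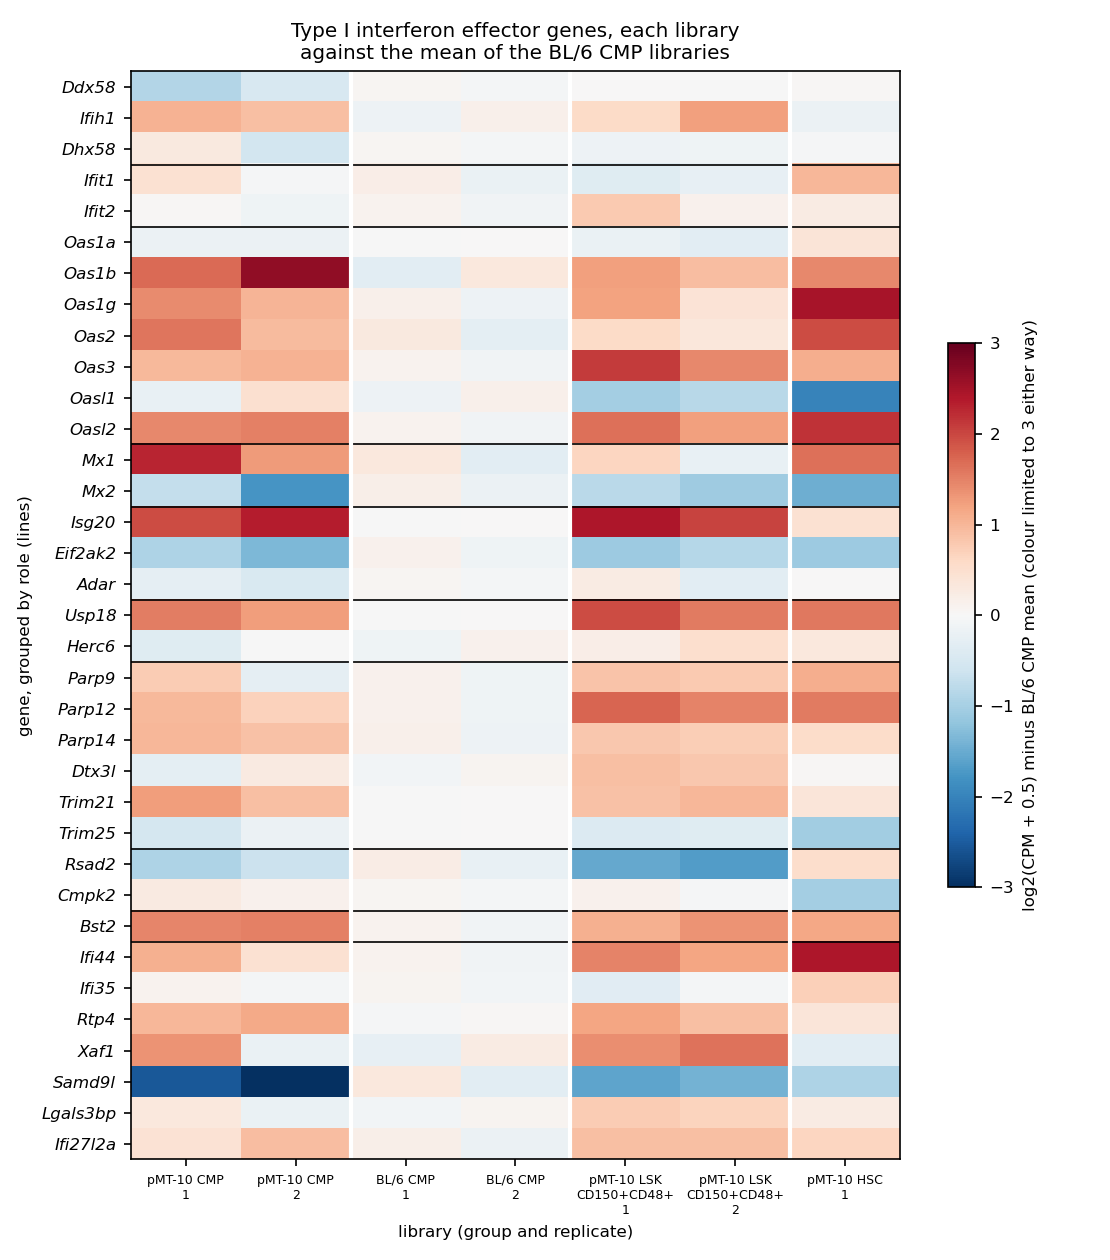
Level of the 35 tested members in each of the 7 libraries as log2(CPM + 0.5) minus the mean of the BL/6 CMP libraries (colour, limited to 3 in either direction); rows are genes in order of role, columns are libraries. Isg20, Oasl2, Usp18 and Bst2 are red in all 5 pMT-10 libraries, and Eif2ak2 and Samd9l are blue in all 5.

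**Figure D2:**
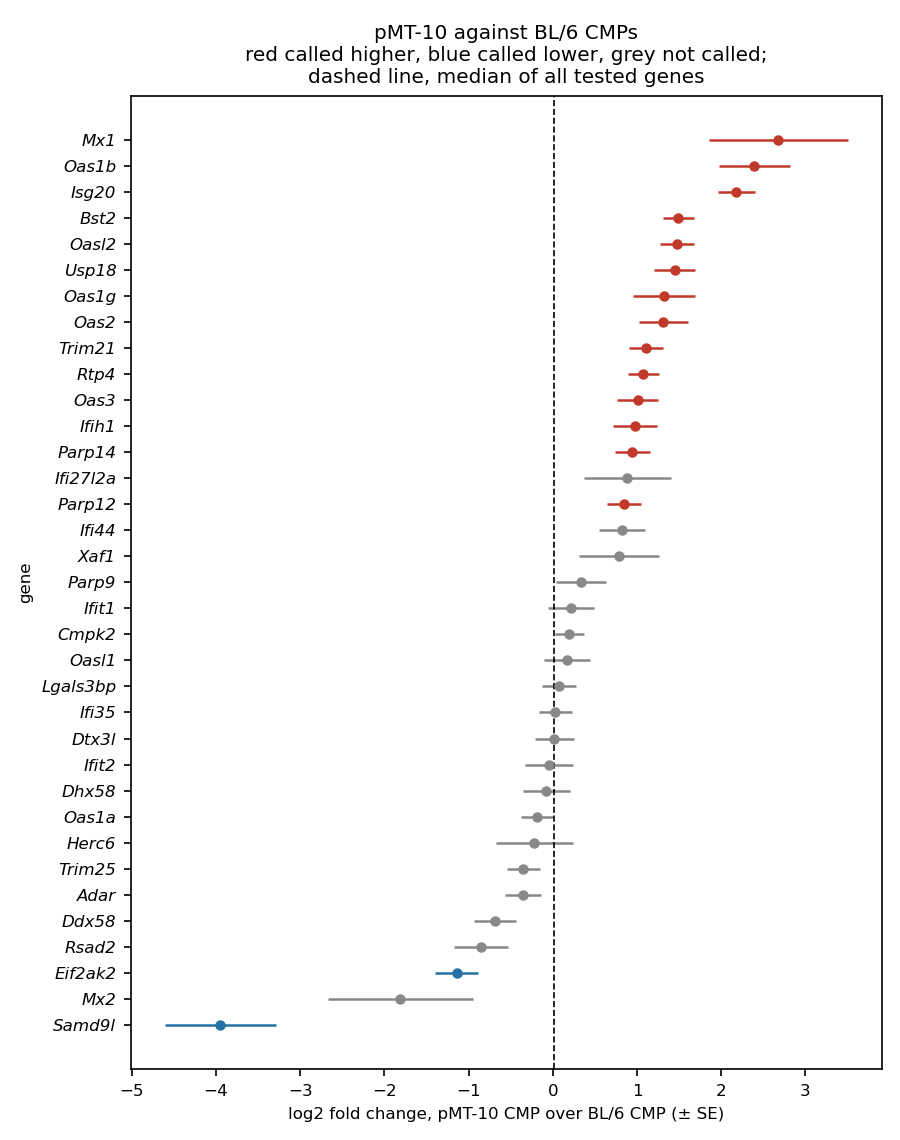
Log2 fold change of each tested member in pMT-10 over BL/6 CMPs (x axis; points, estimate from edgeR; bars, SE), sorted by size. The 14 members called higher lie between 0.85 (Parp12) and 2.68 (Mx1), and the 2 called lower are Eif2ak2 (-1.14) and Samd9l (-3.95).

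The promoters of the members were searched for the letters of the ISRE and of the GAS. RefSeq promoters (GRCm38.p6, 250 bases before to 50 after the start) were found for 26 of the 36 members. The ISRE core (the letters GAAANN followed directly by GAAA), searched on both strands with overlapping matches counted, was present in 10 of these 26, against 3.99% of 27025 genes. The GAS core TTCNNNGAA, searched in the same way, was present in 7 of 26, against 9.55% of genes. The ISRE core was found in members of every class of call: 5 of the 8 matched members that were higher in pMT-10 CMPs (Bst2, Ifih1, Oas1g, Oas3 and Trim21), 4 of the 15 that were not called (Ddx58, Ifit1, Oas1a and Rsad2), and 1 of the 2 that were lower (Eif2ak2). The GAS core was found in 2 of 8, 4 of 15 and 1 of 2 in the same order. A match is a description of letters and not evidence of binding. The last 150 bases before the start are shown for 3 members that were higher and carry the core (Oas1g, Oas3, Bst2) and 3 that carry it and were not called (Oas1a, Ifit1, Rsad2), 5′ to 3′ on the strand of the gene, with the ISRE core in capitals (where it lies on the opposite strand it reads TTTCNN and then TTTC).
Oas1g, chr5:120887614-120887763, minus strand: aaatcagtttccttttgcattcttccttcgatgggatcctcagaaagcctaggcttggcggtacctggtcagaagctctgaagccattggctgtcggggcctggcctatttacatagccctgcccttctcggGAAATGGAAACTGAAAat
Oas1a, chr5:120907526-120907675, minus strand: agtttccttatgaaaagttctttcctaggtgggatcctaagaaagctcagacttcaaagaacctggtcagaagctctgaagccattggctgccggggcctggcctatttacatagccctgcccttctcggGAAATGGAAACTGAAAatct
Oas3, chr5:120777660-120777809, minus strand: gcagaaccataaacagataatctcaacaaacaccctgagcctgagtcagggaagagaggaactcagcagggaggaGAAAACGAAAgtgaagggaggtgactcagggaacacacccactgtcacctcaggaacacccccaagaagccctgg
Bst2, chr8:71537473-71537622, minus strand: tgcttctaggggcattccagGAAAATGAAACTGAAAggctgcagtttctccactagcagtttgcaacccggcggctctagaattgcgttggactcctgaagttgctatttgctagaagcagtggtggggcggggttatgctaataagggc
Ifit1, chr19:34640739-34640888, plus strand: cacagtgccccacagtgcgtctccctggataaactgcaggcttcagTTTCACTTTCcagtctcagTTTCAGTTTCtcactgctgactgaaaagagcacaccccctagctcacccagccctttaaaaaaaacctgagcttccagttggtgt
Rsad2, chr12:26456453-26456602, minus strand: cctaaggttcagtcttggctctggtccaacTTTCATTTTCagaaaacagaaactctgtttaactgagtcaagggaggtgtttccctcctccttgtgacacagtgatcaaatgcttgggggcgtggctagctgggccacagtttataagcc
Oas1g and Oas1a carry the same run of overlapping cores just before the start, and their printed stretches match at 129 of 155 alignment columns (83.2%), while Oas1g was called higher in pMT-10 CMPs and Oas1a was not called; the difference between them was not tested. Bst2 has overlapping cores 130 to 115 bases before its start, with a GAS core 136 to 128 bases before it that overlaps the first of them.

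**Figure D3:**
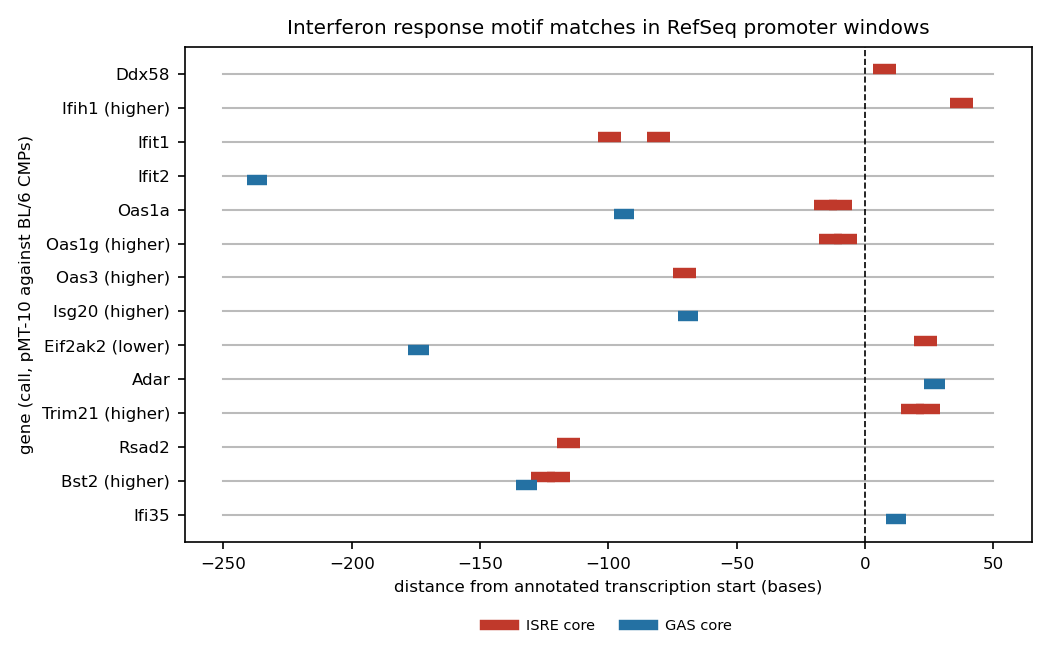
Positions of ISRE core (red) and GAS core (blue) matches in the promoter windows of the 14 members that hold either, as distance from the annotated start in bases; labels give the call in pMT-10 against BL/6 CMPs. Matches lie on both sides of the start, and genes that were higher and genes that were not called both carry them.

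Of the 3 sensors of foreign RNA, 1 was called between the CMP groups. Ifih1 encodes MDA5, which binds long double-stranded RNA. It had 46.0 and 42.1 CPM in pMT-10 CMPs, 19.9 and 24.7 in BL/6 CMPs, 33.4 and 52.3 in LSK cells, and 19.7 in HSC. Both pMT-10 CMP libraries were above both BL/6 libraries, a log2 difference of 0.98 ± 0.26 (SE, with an adjusted p of 0.0236). Ddx58 encodes RIG-I, which binds RNA ends that bear a triphosphate. It had 12.5 and 16.7 CPM in pMT-10 CMPs, 24.6 and 22.4 in BL/6 CMPs, 23.8 and 23.2 in LSK cells, and 24.2 in HSC, so the pMT-10 CMPs were the lowest libraries (log2 fold change -0.69 ± 0.25, adjusted p = 0.0649). Dhx58, which encodes the regulatory helicase LGP2, had 45.8 and 25.4 CPM in pMT-10 CMPs and from 33.8 to 39.2 CPM in all other libraries, and the CMP groups overlapped (-0.08 ± 0.28, adjusted p = 0.857).

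The IFIT genes, whose products bind viral RNA that lacks the host cap, showed no call in the CMPs. Ifit1 had 22.5 and 15.8 CPM in pMT-10 CMPs, 18.7 and 14.2 in BL/6 CMPs, 12.6 and 13.7 in LSK cells, and 33.2 in HSC. The CMP groups overlapped, and the HSC library was the highest. Ifit2 had 17.5 and 15.4 CPM in pMT-10 CMPs, 18.3 and 15.8 in BL/6 CMPs, 29.5 and 18.7 in LSK cells, and 20.3 in HSC. Their log2 fold changes between the CMP groups were 0.22 ± 0.28 for Ifit1 (adjusted p = 0.58) and -0.05 ± 0.28 for Ifit2 (adjusted p = 0.915).

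The OAS family makes short oligoadenylates that switch on RNase L, which cuts RNA. All 7 genes lie on chromosome 5 (GENCODE M21, GRCm38), with Oas2, Oas3, Oas1b, Oas1g and Oas1a between bases 120730333 and 120907521 and Oasl2 and Oasl1 between 114896936 and 114937915. Of the 7, 5 were higher in pMT-10 CMPs and the other 2 were not called. Oas1a, Oas1b and Oas1g are close copies, and how the counting split reads between them is not given in the sources used here, so their values are uncertain. The annotation lists Oas1b as a polymorphic pseudogene, a gene that is intact in some strains only.

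Oas1b had 10.8 and 21.6 CPM in pMT-10 CMPs, 2.31 and 3.80 in BL/6 CMPs, 7.6 and 6.12 in LSK cells, and 8.87 in HSC. All 5 pMT-10 libraries were above both BL/6 libraries, and the log2 fold change in CMPs was 2.39 ± 0.42 (adjusted p = 0.00489). Oas1g had 12 and 9.04 CPM in pMT-10 CMPs, 4.71 and 3.72 in BL/6 CMPs, 10.3 and 5.69 in LSK cells, and 25.4 in HSC (1.32 ± 0.37, adjusted p = 0.0274). The HSC library was the highest, and the BL/6 pair was the lowest. Oas1a had 42.6 and 42.8 CPM in pMT-10 CMPs, 48.1 and 49.0 in BL/6 CMPs, 42.1 and 38.9 in LSK cells, and 63.7 in HSC, with the pMT-10 CMPs slightly below BL/6 (-0.19 ± 0.19, adjusted p = 0.483). Oas2 had 58.8 and 37.2 CPM in pMT-10 CMPs, 23.3 and 15.5 in BL/6 CMPs, 28.4 and 24.2 in LSK cells, and 75.2 in HSC (1.31 ± 0.29, adjusted p = 0.0114). Again the BL/6 pair was the lowest and the HSC library the highest. Oas3 had 76.9 and 81.4 CPM in pMT-10 CMPs, 42.5 and 36.1 in BL/6 CMPs, 170 and 107 in LSK cells, and 84.4 in HSC (1.01 ± 0.24, adjusted p = 0.0154). For Oas3 the LSK cells held the highest levels.

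Of the OAS-like genes, Oasl2 was called between the CMP groups and Oasl1 was not, with no test of the difference between them. Oasl2 had 147 and 156 CPM in pMT-10 CMPs, 58.5 and 50 in BL/6 CMPs, 170 and 127 in LSK cells, and 243 in HSC. No pMT-10 library overlapped the BL/6 pair, and the log2 fold change in CMPs was 1.48 ± 0.20 (adjusted p = 0.00232). Oasl1, which is known to limit the interferon response by holding back translation of Irf7, had 28.0 and 45.9 CPM in pMT-10 CMPs, 29.6 and 36.1 in BL/6 CMPs, 15.8 and 18.2 in LSK cells, and 7.81 in HSC. The CMP groups overlapped (0.17 ± 0.28, adjusted p = 0.676) and the HSC library was the lowest of the 7.

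The Mx GTPases, which trap incoming viral nucleoproteins, were near the limit of detection. Mx1 had 36 and 15 counts in pMT-10 CMPs (3.97 and 1.74 CPM), 7 and 3 in BL/6 CMPs (0.646 and 0.242 CPM), 8 and 4 in LSK cells, and 18 in HSC (2.38 CPM). Mx1 passed the filter on low counts through pMT-10 CMP and HSC libraries, so its direction against BL/6 was largely set by the filter. The pMT-10 CMPs were above BL/6 (2.68 ± 0.83, adjusted p = 0.0391), but the call was lost in 6 of 12 alternatives, among them leaving out either BL/6 library, either LSK library or pMT-10 CMP replicate 1, and the estimate ranged from 1.97 to 3.49 over the leave-one-out fits. Mx2, listed as a polymorphic pseudogene, had 7 and 1 counts in pMT-10 CMPs against 20 and 17 in BL/6 CMPs, 6 and 7 in LSK cells, and 2 in HSC. For Mx2 the BL/6 libraries were the highest, and it passed the filter on low counts through them alone. That order was thus largely set by the filter. The difference in CMPs was not called (-1.81 ± 0.86, adjusted p = 0.145). It was -3.66 (adjusted p = 0.0196) if pMT-10 CMP replicate 1 was left out and -1.04 if replicate 2 was.

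Enzymes that act on double-stranded or viral RNA moved in opposite directions. Isg20 is an exonuclease that degrades RNA (chromosome 7, bases 78913424 to 78920396). It had 206 and 269 CPM in pMT-10 CMPs, 51.6 and 53.3 in BL/6 CMPs, 285 and 215 in LSK cells, and 72.7 in HSC. Its log2 difference in CMPs was 2.18 ± 0.22 (adjusted p = 0.000806), a 4.53-fold difference, while the HSC library lay between the BL/6 pair and the other pMT-10 libraries. Eif2ak2 encodes PKR, the kinase that stops translation on binding double-stranded RNA (chromosome 17, bases 78852564 to 78882573). It was lower in pMT-10 CMPs, with 19.5 and 14.6 CPM against 40.9 and 34.6 CPM in BL/6 CMPs (-1.14 ± 0.25, adjusted p = 0.0109), with 17.5 and 20.4 in LSK cells and 17.5 in HSC. All 5 pMT-10 libraries were below both BL/6 libraries. Adar, which edits adenosine to inosine in double-stranded RNA, had 188 and 164 CPM in pMT-10 CMPs, 233 and 218 in BL/6 CMPs, 269 and 181 in LSK cells, and 227 in HSC, and was not called in any of the 4 comparisons.

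Usp18 removes ISG15 from proteins and blocks signalling at IFNAR2. It had 32.7 and 27.0 CPM in pMT-10 CMPs, 10.8 and 11.1 in BL/6 CMPs, 43.8 and 33.1 in LSK cells, and 33.6 in HSC. Every pMT-10 library was above both BL/6 libraries, by 1.45 ± 0.25 on the log2 scale in CMPs (adjusted p = 0.00428). Herc6, the mouse ligase for ISG15, had between 1.88 and 3.81 CPM in the 7 libraries and was not called in any comparison.

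Of the 6 TRIM and PARP/DTX3L genes, which attach ubiquitin or ADP-ribose, 3 were higher in pMT-10 CMPs. Trim21, a cytosolic antibody receptor and ubiquitin ligase, had 79.2 and 61.9 CPM in pMT-10 CMPs, 32.6 and 33.0 in BL/6 CMPs, 60.3 and 65.8 in LSK cells, and 42.4 in HSC (1.11 ± 0.20, adjusted p = 0.00558). Parp12 had 81.3 and 67.2 CPM in pMT-10 CMPs, 45.2 and 37.4 in BL/6 CMPs, 138 and 117 in LSK cells, and 122 in HSC (0.85 ± 0.20, adjusted p = 0.0155). Parp14 had 58.3 and 53.2 CPM in pMT-10 CMPs, 31.9 and 25.9 in BL/6 CMPs, 50.7 and 47.9 in LSK cells, and 42.4 in HSC (0.95 ± 0.21, adjusted p = 0.0105). For these 3 genes no pMT-10 library overlapped the BL/6 pair. Parp9 and its partner Dtx3l overlap at their starts on opposite strands of chromosome 16. Parp9 (plus strand) starts at base 35938470 and Dtx3l (minus strand) at base 35939151. Reads from the overlap cannot be assigned where strand was not kept, which the sources used here do not state. Parp9 had 133 and 64.0 CPM in pMT-10 CMPs, 84.6 and 71.5 in BL/6 CMPs, 141 and 134 in LSK cells, and 165 in HSC. Dtx3l had 29.8 and 44.2 CPM in pMT-10 CMPs, 34.3 and 38.8 in BL/6 CMPs, 68.2 and 63.8 in LSK cells, and 37.2 in HSC. The CMP groups overlapped for both. Trim25, the ligase that acts on RIG-I, had 48.8 and 62.5 CPM in pMT-10 CMPs, 70.4 and 71.5 in BL/6 CMPs, 53.5 and 55.2 in LSK cells, and 34.1 in HSC, so the BL/6 pair was the highest.

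Rsad2 and Cmpk2 are neighbours on chromosome 12 that work in turn to make a chain-terminating nucleotide. Rsad2 (viperin) had 4.86 and 6.03 CPM in pMT-10 CMPs, 11.4 and 8.32 in BL/6 CMPs, 3.04 and 2.73 in LSK cells, and 14.2 in HSC. Cmpk2 had 265 and 239 CPM in pMT-10 CMPs, 229 and 210 in BL/6 CMPs, 239 and 213 in LSK cells, and 108 in HSC. The HSC library was the highest of all for Rsad2 and the lowest of all for Cmpk2, and neither gene was called between the CMP groups.

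Bst2 (tetherin) holds budding virions at the cell surface (chromosome 8, bases 71534255 to 71537456). It had 275 and 287 CPM in pMT-10 CMPs, 107 and 93.6 in BL/6 CMPs, 211 and 254 in LSK cells, and 224 in HSC. Each pMT-10 library was above both BL/6 libraries, and the log2 fold change in CMPs was 1.49 ± 0.18 (adjusted p = 0.00162), a 2.81-fold difference. Ifitm1 had 2 and 9 counts in pMT-10 CMPs, 7 and 0 in BL/6 CMPs, 3 and 4 in LSK cells, and 4 in HSC, which is too few to compare.

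Among the remaining 7 effectors, Rtp4 and Samd9l were called in CMPs. Rtp4, a chaperone of G protein-coupled receptors that also restrains the type I interferon response, had 131 and 145 CPM in pMT-10 CMPs, 64.1 and 66.7 in BL/6 CMPs, 149 and 123 in LSK cells, and 84.7 in HSC (1.08 ± 0.19, adjusted p = 0.0044). Samd9l, an inhibitor of growth and translation in hematopoietic cells, had 7 and 1 counts in pMT-10 CMPs against 95 and 68 in BL/6 CMPs, 17 and 32 in LSK cells, and 26 in HSC. In CPM these are 0.772 and 0.116, 8.77 and 5.49, 1.99 and 2.30, and 3.44. The pMT-10 CMPs were the lowest libraries and the BL/6 pair the highest (-3.95 ± 0.66, adjusted p = 0.00399). Leaving out pMT-10 CMP replicate 1 gave an estimate of -5.80, and leaving out replicate 2 gave -3.18.

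Ifi44, a cytoplasmic protein of the response, had 24.5 and 16.1 CPM in pMT-10 CMPs, 12.4 and 10.7 in BL/6 CMPs, 33.4 and 26.7 in LSK cells, and 64.5 in HSC. No pMT-10 library overlapped the BL/6 pair, and the difference in CMPs was not called. Xaf1, a pro-apoptotic antagonist of XIAP, had 15.8 and 5.10 CPM in pMT-10 CMPs, 4.89 and 7.19 in BL/6 CMPs, 16.4 and 19.4 in LSK cells, and 4.63 in HSC. Ifi35 ranged from 50.5 to 69.4 CPM in the CMP and LSK libraries and was at 105 CPM in HSC. Lgals3bp, a secreted galectin-binding protein, had 613 and 426 CPM in pMT-10 CMPs, 464 and 523 in BL/6 CMPs, 840 and 785 in LSK cells, and 582 in HSC. Ifi27l2a had 1.99 and 3.01 CPM in pMT-10 CMPs, 1.57 and 1.13 in BL/6 CMPs, 2.92 and 2.95 in LSK cells, and 2.38 in HSC. The CMP groups overlapped for Xaf1, Ifi35 and Lgals3bp and did not for Ifi27l2a, which was lowest in BL/6.

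**Figure D4:**
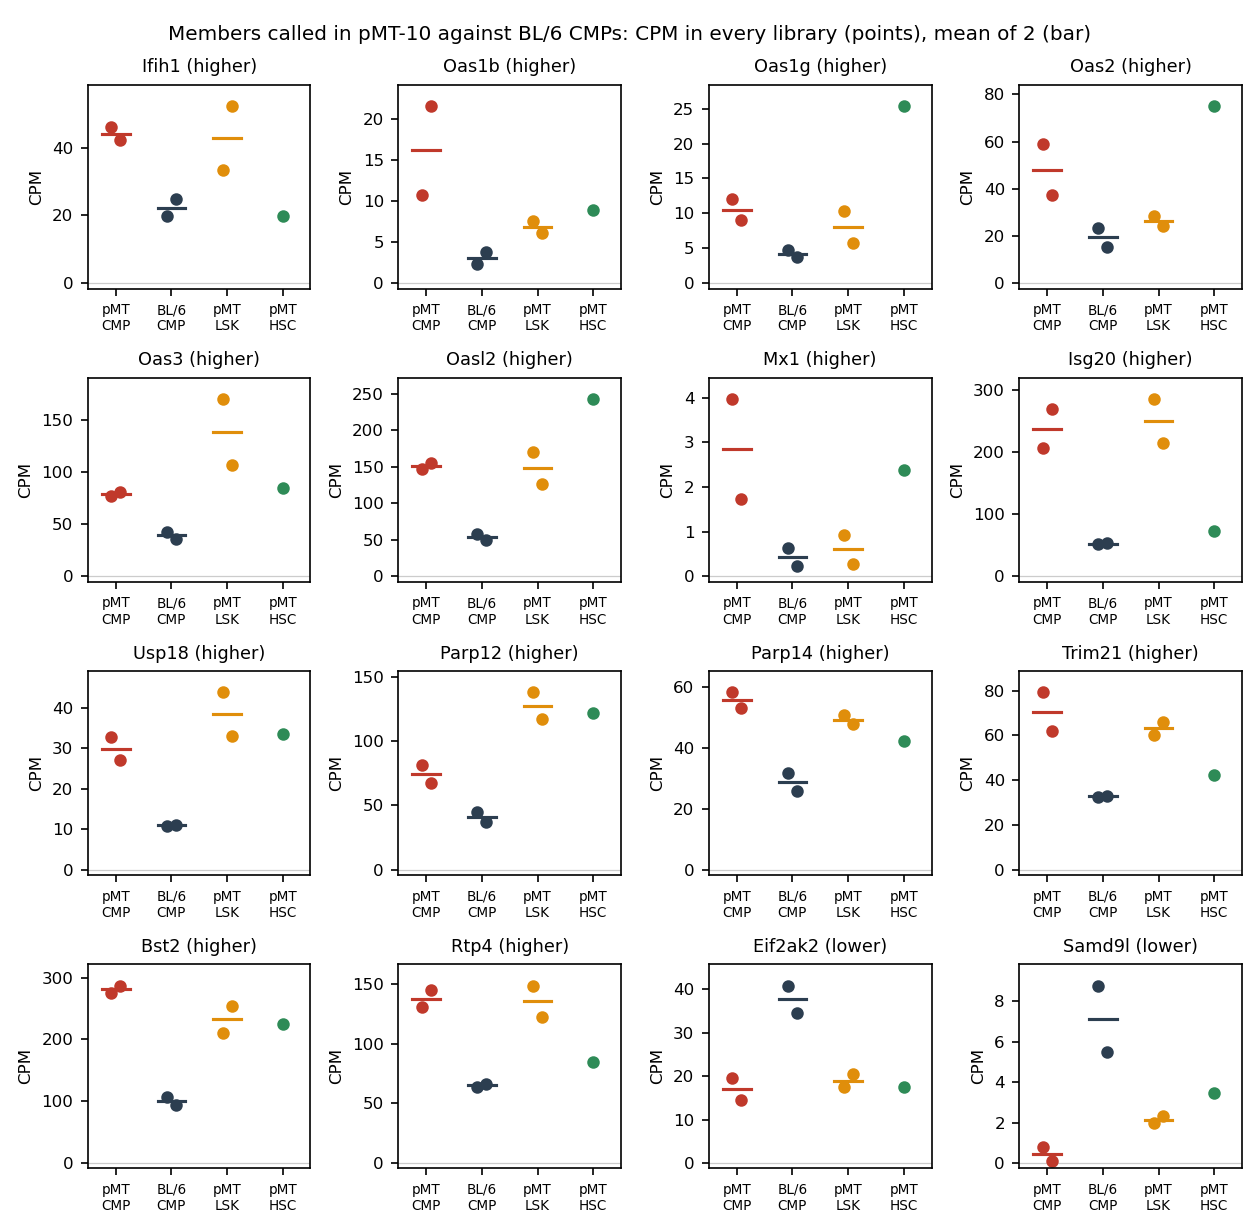
CPM in every library (points) and the mean of 2 libraries (bar) for the 16 members called between pMT-10 and BL/6 CMPs; each panel has its own linear axis, and the groups are pMT-10 CMP, BL/6 CMP, pMT-10 LSK CD150+CD48+ and pMT-10 HSC. In the HSC library Oas1g (25.4 CPM), Oas2 (75.2 CPM) and Oasl2 (243 CPM) are above all other libraries, while Isg20 (72.7 CPM) and Ifih1 (19.7 CPM) are close to the BL/6 CMPs.

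Within pMT-10 mice the LSK CD150+CD48+ cells and the CMPs, which shared a chip, differed in few of these genes. Parp12 (0.78 ± 0.20, adjusted p = 0.0377) and Dtx3l (0.84 ± 0.23, adjusted p = 0.049) were higher in LSK cells and Oasl1 was lower (-1.12 ± 0.28, adjusted p = 0.0359). These are 2 members higher and 1 lower of 35, against 5.92% of all tested genes in each direction (11.8% in all). Both LSK libraries lay above both pMT-10 CMP libraries for 12 members (34.3%, against 27.8% of all tested genes) and below them for 9 (25.7%, against 27.9%). The median log2 fold change of the members was -0.02, and that of all tested genes was -0.01. All 3 calls were lost without either LSK library, without either BL/6 library, and when only the compared groups entered the fit.

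The HSC library was compared with the LSK pair, from which it differs in population and in chip. Its spread is assumed to be that of the other groups, since it is 1 library. In HSC 6 members were higher (10.6% of all tested genes were) and 3 were lower (8.15% were; 18.8% in all). Rsad2 was higher by 2.30 ± 0.39 on the log2 scale (adjusted p = 0.00616), Oas1g by 1.69 ± 0.41 (adjusted p = 0.023), Oas2 by 1.52 ± 0.34 (adjusted p = 0.0163), Ifit1 by 1.33 ± 0.33 (adjusted p = 0.0235), Ifi44 by 1.10 ± 0.31 (adjusted p = 0.0381) and Ifi35 by 0.90 ± 0.23 (adjusted p = 0.0293). The nuclease Isg20 (-1.78 ± 0.28, adjusted p = 0.00465), the sensor Ifih1 (-1.12 ± 0.34, adjusted p = 0.0478) and Cmpk2 (-1.06 ± 0.22, adjusted p = 0.0129) were lower. The HSC library lay above both LSK libraries for 14 members (40.0%, against 45.4% of all tested genes) and below them for 15 (42.9%, against 41.6%). The median over the members was -0.06, and over all tested genes it was 0.03. All 9 calls were lost without LSK replicate 1, and all but that of Isg20 without LSK replicate 2. Leaving out a library of another group also changed the number of calls, over all tested genes as over the members.

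HSC and BL/6 CMPs shared chip 2 and differ in strain and population together. Against BL/6 CMPs, 8 members were higher in HSC (11.8% of all tested genes were) and 4 were lower (8.5% were; 20.3% in all). The largest increases were those of Oas1g (2.59 ± 0.42, adjusted p = 0.00296), Ifi44 (2.48 ± 0.31, adjusted p = 0.00089), Oasl2 (2.17 ± 0.24, adjusted p = 0.000395) and Oas2 (1.96 ± 0.34, adjusted p = 0.00414). Usp18 (1.62 ± 0.29), Parp12 (1.56 ± 0.24), Bst2 (1.16 ± 0.21) and Oas3 (1.10 ± 0.29) were the other 4, with adjusted p of 0.0048, 0.00222, 0.00542 and 0.0255. Oasl1 (-2.07 ± 0.40, adjusted p = 0.00674), Eif2ak2 (-1.11 ± 0.32, adjusted p = 0.0384), Trim25 (-1.05 ± 0.26, adjusted p = 0.0202) and Cmpk2 (-1.02 ± 0.22, adjusted p = 0.0122) were lower. The HSC library lay above both BL/6 libraries for 23 members (65.7%, against 44.9% of all tested genes) and below them for 8 (22.9%, against 45.7%). Mx1 is among the 23 and Mx2 among the 8, with the limit of the filter given for them in the CMPs. The median over the members was 0.39, and over all tested genes it was -0.01. Calls of Oas1g, Oas2, Oasl1, Oasl2, Ifi44 and Parp12 held in all 12 alternatives run. The number of calls changed with the library left out, over all tested genes as over the members. The comparisons of HSC and of pMT-10 CMPs with BL/6 CMPs share the BL/6 pair. They are therefore not independent of each other.

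Over the pMT-10 libraries as a whole, 14 members lay above both BL/6 libraries in all 5 (40.0% of the 35, against 14.2% of all tested genes): Isg20, Oas1b, Oas1g, Oas2, Oas3, Oasl2, Usp18, Ifi44, Rtp4, Parp12, Parp14, Bst2, Ifi27l2a and Trim21. Mx2, Samd9l, Eif2ak2 and Trim25 lay below both in all 5 (11.4%, against 15.5%). Mx2 passed the filter on low counts through the BL/6 libraries alone. Its place here, and below among members highest in BL/6 CMPs, was therefore largely set by the filter. The group with the lowest mean was the BL/6 CMPs for 18 of the 35 members (51.4%, against 25.2% of all tested genes). The highest mean was in HSC for 11 members (31.4%, against 30.6% of all tested genes), in LSK cells for 10 (28.6%, against 18.3%), in pMT-10 CMPs for 9 (25.7%, against 26.4%) and in BL/6 CMPs for 5 (14.3%, against 24.7%). For HSC and pMT-10 CMPs these shares were near those of all tested genes.

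Upstream of the effectors, the ligands were at the limit of detection. The tables hold 11 of 13 interferon genes looked up, at no more than 4 counts in any library, and Ifnb1 and Ifng had 0 counts in all 7. Of the receptor, kinase and ISGF3 genes, 6 were tested. In pMT-10 CMPs 3 were higher and 1 was lower, against 14.3% and 13.7% of all tested genes. Stat2 had 101 and 93.0 CPM in pMT-10 CMPs, 22.7 and 19.3 in BL/6 CMPs, 80.0 and 70.9 in LSK cells, and 51.1 in HSC, with a log2 fold change in CMPs of 2.21 ± 0.20 (adjusted p = 0.000554). Ifnar2 (1.17 ± 0.23, adjusted p = 0.00657) and Irf9 (0.92 ± 0.18, adjusted p = 0.00705) were also higher in pMT-10 CMPs, and Jak1 was lower (-0.65 ± 0.17, adjusted p = 0.0236). The other receptor chain Ifnar1 (-0.45 ± 0.21, adjusted p = 0.131) and Tyk2 (-0.51 ± 0.21, adjusted p = 0.0899) were not called. Without BL/6 replicate 1 or 2, 1 of these 6 genes was called. Of 11 tested genes of nucleic acid sensing and interferon induction, 4 were higher (36.4%, against 14.3% of all tested genes). In the other direction 1 was lower (9.09%, against 13.7%). Irf7, which drives interferon genes (1.59 ± 0.24, adjusted p = 0.00289), and the kinase Ikbke (1.22 ± 0.23, adjusted p = 0.00641) rose, and Mavs, the adaptor of RIG-I and MDA5, fell by 0.81 on the log2 scale (SE 0.17, adjusted p = 0.0105). Without BL/6 replicate 1 or 2, 1 of the 11 was called. The 4 tested feedback inhibitors gave 0 calls by edgeR, against 28% of all tested genes. There was 1 at an unadjusted p under 0.05, and DESeq2 gave 1 call.

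Of 29 other interferon-stimulated genes tested, 10 were higher in pMT-10 CMPs (34.5%, against 14.3% of all tested genes). Another 2 were lower (6.9%, against 13.7%). Fewer were called without BL/6 replicate 1 or 2. Zbp1, a sensor of Z-form nucleic acid that can start necroptosis, had 61.6 and 62.7 CPM in pMT-10 CMPs, 5.82 and 5.25 in BL/6 CMPs, 121 and 106 in LSK cells, and 52.7 in HSC (3.49 ± 0.21, adjusted p = 6.28e-05). Uba7, the activating enzyme for ISG15, differed by 2.44 ± 0.22 (adjusted p = 0.000545) and Trafd1 by 1.51 ± 0.19 (adjusted p = 0.00175). Their median log2 fold change was 0.33, as it was for the effectors.

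A list of genes known for induction by IFN-γ, such as guanylate-binding proteins, immunity-related GTPases and antigen-processing genes, was set beside the effectors. It gave larger values in the comparisons with BL/6, and no test of the difference was made. The list was also chosen with earlier results of these data known. It names 28 genes, of which the tables hold 22, and 20 passed the filter on low counts. Of these 20, 20 were higher in pMT-10 CMPs than in BL/6 CMPs (14.3% of all tested genes were), at a median of 2.68 (log2). With no filter on low counts 18 were called, and with only the compared groups in the fit 19. Without BL/6 replicate 1 or 2 fewer than 20 were called. Cxcl9, Gbp4, Gbp9 and Batf2 had 9 counts or fewer in each BL/6 library, and Serpina3f had 11 and 7. These genes passed the filter through pMT-10 libraries alone. Their direction against BL/6 was thus largely set by the filter. In HSC against BL/6 CMPs 20 were higher (11.8% of all tested genes were), with a median of 3.56. There 18 were called with no filter on low counts, and fewer than 20 without either BL/6 library. Between LSK cells and pMT-10 CMPs 7 were higher (35%, against 5.92% of all tested genes; median 0.82), and all 7 calls were lost without LSK replicate 1, while 1 gene was called without LSK replicate 2. Leaving out pMT-10 CMP replicate 1 gave 12 higher and 3 lower, and leaving out replicate 2 gave 11 higher. Between HSC and LSK cells 3 were higher (15%, against 10.6%) and 2 lower (10%, against 8.15%; median -0.07), and 1 gene was called without either LSK library. For HSC against LSK cells there were 6 higher and 6 lower if either pMT-10 CMP library was left out, 2 and 0 without BL/6 replicate 1, and 1 and 1 without BL/6 replicate 2.

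**Figure D5:**
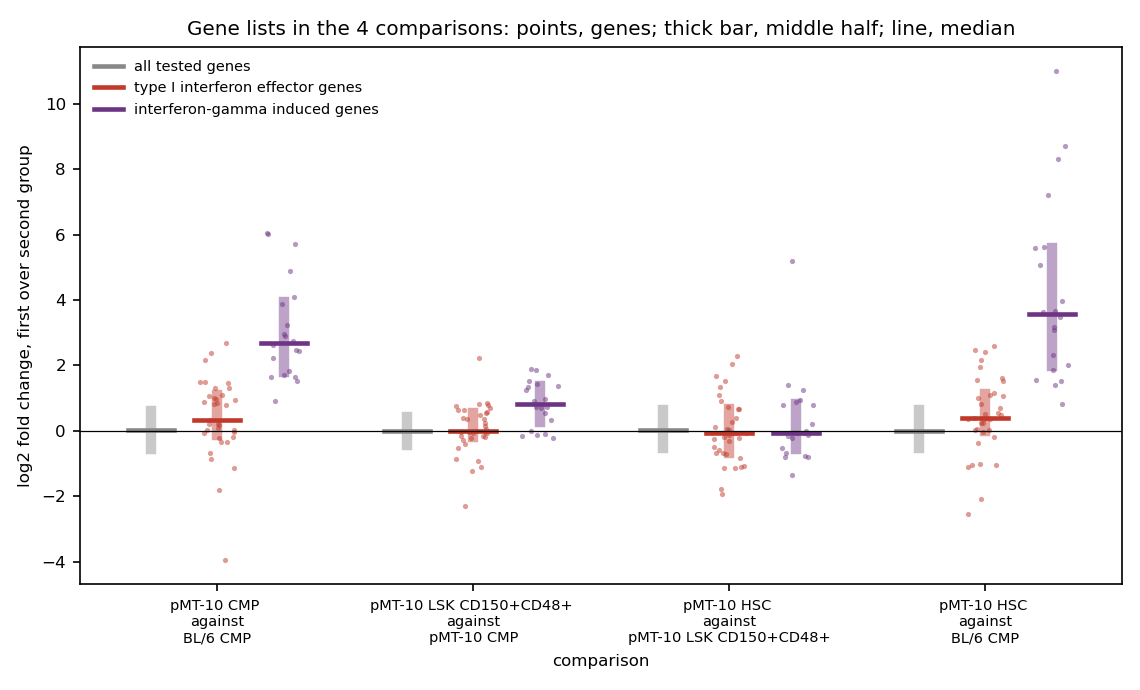
Log2 fold changes (y axis) of the 35 type I interferon effector genes (red) and the 20 IFN-γ induced genes (purple) in the 4 comparisons (points, genes; thick bar, 25th to 75th percentile; line, median), with all 11429 tested genes in grey. The effector medians are 0.33, -0.02, -0.06 and 0.39, and the IFN-γ list reaches 2.68 and 3.56 in the comparisons with BL/6.

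Summed levels of marker genes were measured beside these results. The common myeloid progenitor list summed to 689 and 737 CPM in pMT-10 CMPs, 1190 and 1260 in BL/6 CMPs, 1760 and 1820 in LSK cells, and 576 in HSC. Most of the LSK sums was Gata2 (1450 and 1510 CPM), and most of the BL/6 sums was Gata2 and Kit. In LSK cells Cd34, Mpo, Fcgr3 and Cebpa were lower than in any CMP library, and Csf2rb was higher. The sums therefore do not rank the groups by progenitor identity. The LSK and stem cell list summed to 233 and 334 CPM in pMT-10 CMPs, 381 and 409 in BL/6 CMPs, 590 and 642 in LSK cells, and 1120 in HSC. The B cell list summed to 52.5 CPM in HSC and to 11.3 to 20.3 CPM in the other libraries. The T and NK cell list summed to 160 and 226 CPM in pMT-10 CMPs, 72.9 and 78.0 in BL/6 CMPs, 267 and 350 in LSK cells, and 110 in HSC. Most of it was Nkg7 (157 and 220 CPM in pMT-10 CMPs), and the defining genes Cd3d, Cd3e, Cd3g, Cd8a and Ncr1 were at 3 counts or fewer throughout. The plasmacytoid dendritic cell list, of a cell type known for making type I interferon, summed to 54.2 and 79.0 CPM in pMT-10 CMPs, 79.2 and 81.1 in BL/6 CMPs, 83.3 and 96.6 in LSK cells, and 88.9 in HSC. Most of this sum was Tcf4, Ptprcap and Lair1. Its defining genes Siglech and Ccr9 had 0 counts throughout, and Klk1, Cox6a2 and Spib had 3 or fewer. The macrophage list summed to 7.65 and 25.9 CPM in pMT-10 CMPs and to 12 and 13.4 in BL/6 CMPs, and the neutrophil list to 3.71 and 6.07 and to 3.39 and 15.4. The part of these markers in the results was not tested.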

How the data were processed

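Targeted RNA sequencing (Ion AmpliSeq Transcriptome Mouse Gene Expression Kit, 1 amplicon per gene) was done on total RNA of sorted bone marrow cells, per the labels' protocols. The deposited values are raw counts of reads per gene, in a table for each sequencing chip. The submitters' processing notes name the build mm10. The aligner, counting program and amplicon places are not stated in the labels or file headers. Reads without molecular identifiers are not independent molecules, so floors cover counting error only, and a strain variant under an amplicon can change a count.

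All 7 libraries entered 1 fit in edgeR 4.0.16 (R 4.3.3) with a mean for each of 4 groups (3 residual degrees of freedom). Genes were filtered with filterByExpr (minimum count 10), libraries scaled by TMM, and contrasts tested with the robust quasi-likelihood F-test. P-values were adjusted by Benjamini-Hochberg over 11429 genes, and under 0.05 is called. Standard errors are the log2 fold change over the square root of F. CPM use TMM-scaled totals of the filtered genes. The procedure was tested on simulated counts. No chip term could be fitted in the CMPs.

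All members in the tables are given. Fold changes are printed where a member is called, and for the sensors, IFIT, OAS and Mx families in CMPs. From each pathway list up to 3 called genes with the smallest p are named, and all tested receptor, kinase and ISGF3 genes. The members and lists were chosen with earlier results of these data known. Positions are GENCODE M21 and promoters RefSeq, matched by symbol.

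Alternatives were RLE size factors, total counts, DESeq2 1.42.0, no filter, a minimum count of 50, only the groups compared, each replicate left out, and the replicate number as a block.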

Additional observations from a re-analysis of the deposited data

How the results depend on the processing

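All called members kept their direction under every alternative that tested them, in each of the 4 comparisons (16, 3, 9 and 12 members). For each of them the libraries of the compared groups did not overlap. A change of direction was therefore hardly possible, and its absence is no measure of stability. RLE factors and total counts moved the median of all genes by at most 0.0597. The range over fits that each left out 1 library was, for pMT-10 against BL/6 CMPs, 582 to 5268 genes called, 4 to 17 members higher and 1 to 5 lower. For LSK cells against pMT-10 CMPs it was 44 to 4274, 0 to 8 and 0 to 4, for HSC against LSK cells 266 to 4811, 0 to 9 and 0 to 11, and for HSC against BL/6 CMPs 815 to 4828, 5 to 14 and 1 to 4. Where such a fit leaves 1 library in a group, that library is assumed to vary like the others. Members that were not called in CMPs changed sign among these fits: Dhx58 ranged from -0.57 to 0.29 (log2), Ifit1 from -0.0613 to 0.45, Ifit2 from -0.14 to 0.0531 (0.0425 without pMT-10 CMP replicate 2) and Oasl1 from -0.23 to 0.48. With no filter, LSK cells against pMT-10 CMPs gave 2237 genes, 5 members higher and 4 lower, and HSC against LSK cells gave 6 members lower. DESeq2 gave 5 members higher in LSK cells than in pMT-10 CMPs, and total counts gave 1. With only the compared groups in the fit, LSK cells against pMT-10 CMPs gave 595 genes and 0 members either way, HSC against LSK cells 3987 genes and 10 members lower, and HSC against BL/6 CMPs 6127 genes and 17 members higher. The cause of these shifts was not tested.

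The replicate numbers are not stated to pair samples, and the log2 differences between replicates 1 and 2 correlated across genes at -0.02, -0.02 and -0.08 between the 3 groups of 2. With the replicate number as a block (6 libraries, HSC left out), pMT-10 against BL/6 CMPs gave 2979 genes, 15 members higher and 2 lower, and LSK cells against pMT-10 CMPs gave 1181, 2 and 1. For HSC no paired analysis was possible because its library carries no number.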

Other observations

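Within the pMT-10 CMP pair, 5 of 35 members differed more than 2-fold between replicates: Mx1 (log2 difference, replicate 1 minus replicate 2, 1.11), Mx2 (1.63), Xaf1 (1.59), Parp9 (1.05) and Samd9l (1.63). Of all 11429 tested genes 1939 did, so the share among the members was no higher than that. All 5 of these members were higher in replicate 1. Mx1, Mx2 and Samd9l had 36 counts or fewer in these libraries, whereas Xaf1 had 143 and 44 counts and Parp9 had 1201 and 552. In the LSK pair Mx1 (1.22) was the member that differed more than 2-fold, and the BL/6 pair had none. Among all 11429 tested genes, 574 did in the LSK pair and 394 in the BL/6 pair.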
